A study of Mus musculus with 9 samples.

Results

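The 8 genes Pbx2, Pbx3, Pbx4, Meis1, Meis2, Meis3, Pknox1 and Pknox2 were followed in RNA-seq libraries of the mouse lambdoidal junction. They were chosen by symbol, as members of the PBX, MEIS and PKNOX families of homeodomain transcription factors, and are 8 of the 54532 genes in the count table. The lambdoidal junction is the site at which the nasal prominences (medial and lateral) and the maxillary prominence fuse to form the upper lip and primary palate. The 3 groups were C57BL/6J embryos collected on embryonic day (E) 10.5, on E11.5 or on E12.5, with no treatment or mutant allele given. Each stage had 3 libraries, and each library was made from pooled embryos. The comparisons were the first interval (E11.5 vs. E10.5), the second interval (E12.5 vs. E11.5) and the whole span (E12.5 vs. E10.5). The tissue was dissected whole, so each value is an average over its epithelium, mesenchyme and other cells, and fewer cells of a type cannot be told apart from less RNA per cell. The deposited counts summed to 16581009–20836804 per library.

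PBX, MEIS and PKNOX (also called PREP) proteins belong to the TALE class of homeodomain proteins, which carry an insertion of 3 amino acids in the loop between the first and second helix of the homeodomain. PBX proteins bind DNA together with MEIS or PKNOX proteins and with Hox proteins, and the MEIS or PKNOX partner holds PBX in the nucleus. The face in front of the second pharyngeal arch forms without Hox expression, and loss of PBX function in the mouse facial ectoderm causes cleft lip.

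The homeobox, the part of each gene that encodes the DNA-binding domain, is shown for the gene with the highest level in the PBX and in the MEIS family and for both PKNOX genes, whose order of level turned between stages. The sequences are 63 codons (189 bases) of the GENCODE vM21 transcripts, read 5′ to 3′ on the strand of the gene. Capitals mark the 9 bases of the proline, tyrosine and proline codons of the loop. The homeobox was located by these codons together with a tryptophan and a phenylalanine codon at a fixed distance further 3′.
Pbx2: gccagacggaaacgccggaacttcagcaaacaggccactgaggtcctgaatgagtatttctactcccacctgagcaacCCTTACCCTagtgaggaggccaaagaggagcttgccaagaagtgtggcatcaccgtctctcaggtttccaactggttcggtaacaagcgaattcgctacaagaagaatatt
Meis2: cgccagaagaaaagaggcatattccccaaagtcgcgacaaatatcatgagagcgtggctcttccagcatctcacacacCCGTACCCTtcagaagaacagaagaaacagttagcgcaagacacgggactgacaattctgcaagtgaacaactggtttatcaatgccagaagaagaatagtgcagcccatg
Pknox1: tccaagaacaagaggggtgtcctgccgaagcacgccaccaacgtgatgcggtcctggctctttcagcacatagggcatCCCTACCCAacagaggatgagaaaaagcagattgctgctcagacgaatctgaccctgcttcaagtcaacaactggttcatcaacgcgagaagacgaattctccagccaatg
Pknox2: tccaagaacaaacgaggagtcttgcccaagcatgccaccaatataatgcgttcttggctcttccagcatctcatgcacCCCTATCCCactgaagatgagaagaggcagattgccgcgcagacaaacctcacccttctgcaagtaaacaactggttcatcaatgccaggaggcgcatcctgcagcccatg
In GRCm38 coordinates the homeobox of Pbx2 lies in exons 4 to 6 of 9 (chr17:34594424-34594848, plus strand), and that of Meis2 in exons 8 to 10 of 12 (chr2:115868767-116000205, minus strand). The homeobox of Pknox1 lies in exons 8 to 10 of 11 (chr17:31599569-31603223, plus strand), and that of Pknox2 in exons 10 to 12 of 13 (chr9:36894462-36909703, minus strand). Within a family the homeoboxes were 78.3–84.7% identical (7 pairs), and between families 44.4–71.4% (21 pairs). Pknox1 and Pknox2 differed at 41 of the 189 bases, and Meis1 and Meis2 at 30. The longest stretch of identical bases between the transcripts of any 2 of the 8 genes was 32, between Meis1 and Meis2, and for Pknox1 and Pknox2 it was 18. Against other genes of the annotation, 17.0% of the 50-base words of Meis1 were shared, mostly with Gm37818 on the same strand. The shared part was 4.93% for Pbx2 (Gpsm3), 1.5% for Pknox1 (AC166172.4) and 0.190% for Meis2, and it was 0 for Pbx3, Pbx4, Meis3 and Pknox2.

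All 8 genes were detected at every stage, over a wide range of levels. Levels between genes are compared as CPM (read counts relative to the library size, which was scaled by TMM) per kb of exon, and values of the 3 stages are given from the earliest to the latest. Pbx2 was the highest at each stage, at 72.8 ± 6.63, 67.8 ± 4.46 and 54.4 ± 1.35 CPM per kb (mean ± SD, n = 3), and ranked at the 95.8 percentile of the 16375 genes tested over the 9 libraries. Meis2 came second at 14.0 ± 1.96, 14.2 ± 1.14 and 12.5 ± 1.88 CPM per kb. Pbx3, Meis1 and Meis3 lay between 6.06 and 11.2 CPM per kb in the stage means, and Pknox1 and Pknox2 between 2.03 and 4.83. Pbx4 was the lowest at each stage, at 1.86 ± 0.442, 0.969 ± 0.229 and 1.26 ± 0.239 CPM per kb, from 32–87 counts per library. In the order of the stage means, neighboring genes had ranges that did not overlap, except Meis3 and Meis1 at E10.5. At E10.5 and E11.5 Pbx3 held the third place (11.2 and 8.23 CPM per kb), and at E12.5 Meis3 (8.81) stood above Pbx3 (7.02).

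**Figure D1:**
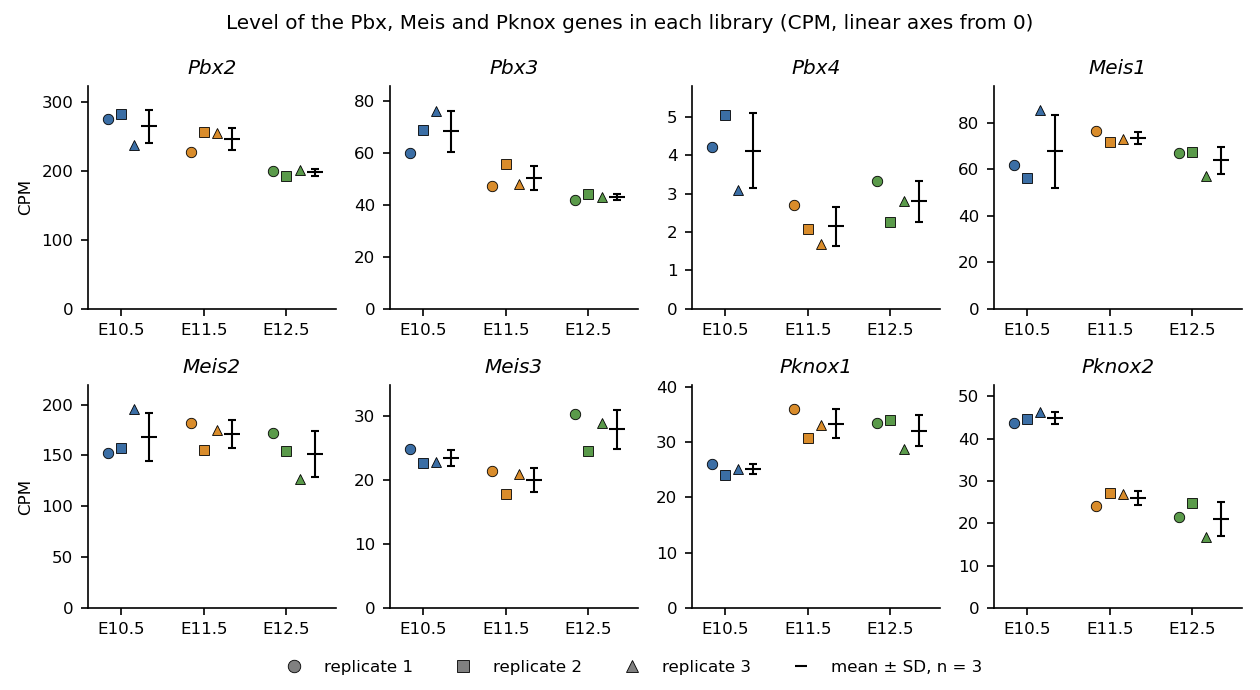
Level of each gene in CPM (vertical axes, linear from 0, a scale of its own per panel) in the 9 libraries by stage (horizontal axes), with circles, squares and triangles for replicates 1, 2 and 3 and a bar with whiskers for the mean ± SD. The 3 E10.5 libraries of Pknox2 lie between 43.6 and 46.3 CPM, above all later libraries, while the 3 stages of Meis2 overlap.

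E10.5 replicate 3 stood apart from the other libraries. Over the 13788 genes whose counts reached 10 in all 9 libraries, the SD of its log2 difference from the other E10.5 libraries was 0.603 and 0.604, against 0.268 between replicates 1 and 2. The same SD was 0.24–0.283 between the E11.5 libraries and 0.386–0.508 between those of E12.5, so the E12.5 libraries also differed more than those of E11.5. The deviation of E10.5 replicate 3 followed the GC content of the genes, with a Spearman correlation of −0.63 (taken over genes, so not over independent replicates). The median log2 difference from the mean of replicates 1 and 2 went from 0.64 in the lowest decile of genes by GC content to −0.57 in the highest decile. Meis1 (0.54), Meis2 (0.34) and Pbx3 (0.24), whose longest transcripts are AT-rich, were higher in replicate 3 than in the other E10.5 libraries on the log2 scale, and Pbx4 (−0.56) and Pbx2 (−0.23) were lower. Pknox1 (0.01), Pknox2 (0.07) and Meis3 (−0.06) differed little. Meis3 thus lay above the interquartile range of the highest decile by GC content (−0.84 to −0.27), to which it belongs. Pbx3 lay below that of the lowest decile (0.37 to 0.92). Removal of the GC trend shifts these 2 genes by more than they deviated. Genes used below as regulators of cell types also stood apart in replicate 3. The epithelial regulator Trp63 was at 118.5 CPM there, against 48.7 and 56.9 in replicates 1 and 2. The mesenchymal regulator Snai1 was at 33.6 CPM, against 89.1 and 86.9. Whether the mix of cells in replicate 3 differed was not tested, and it cannot be told apart from the GC trend here.

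**Figure D2:**
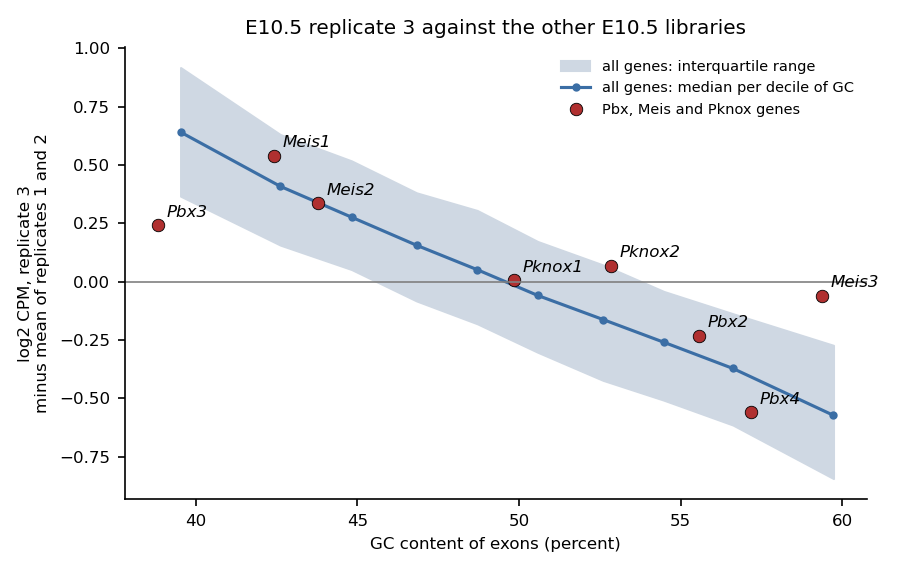
Log2 CPM of E10.5 replicate 3 minus the mean of E10.5 replicates 1 and 2 (vertical axis) against the GC content of the longest transcript of each gene in percent (horizontal axis), with the line for the median and the band for the interquartile range of all genes per decile of GC content. Of the 8 genes, Meis1 lies highest at 0.54 and Pbx4 lowest at −0.56.

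Markers of other cell types also differed between stages. The 9 neuroepithelium and eye field genes Sox1, Sox2, Sox3, Rax, Otp, Pax6, Six3, Lhx2 and Nes summed to 568.5–709 CPM in the E10.5 libraries, then to 213–263 and finally to 205–242 CPM. All 9 passed the test as lower in the first interval, and in the E11.5 libraries Otp had no count and Rax averaged 0.0176 CPM. In the same libraries Nes (119 CPM), Sox2 (44.3), Six3 (30.2) and Lhx2 (29.6) were still detected, so the sum may cover more than a single cell type. The 13 mesenchyme genes, among them Prrx1, Twist1, Pdgfra and Col1a1, summed to 1650–3091, 4852–5452 and 6102–7151 CPM. The 13 epithelium genes, among them Epcam, Cdh1 and Krt14, summed to 558–967, 567–587 and 799–887 CPM. All genes of both lists passed the filter on low counts.

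DEGs were genes with an adjusted p of at most 0.05 whose log2 fold change was at least 1 in size. In the first interval, 0 of the 8 genes were DEGs, where 6.07% of the 15708 genes tested were. Without the limit on the fold change, 1 of 8 passed, Pknox2, against 11.8% of all genes. In the second interval, 0 were DEGs (5.10% of 15808 genes tested) and 0 passed at any fold change (12.2%). Over the whole span, 1 was a DEG, Pknox2 (15.0% of 15899 genes tested), and 2 passed at any fold change, Pbx3 and Pknox2 (24.6%). All 3 calls were downregulations, and all 8 genes passed the filter on low counts in each comparison. The median log2 fold change of the 8 genes was −0.16, −0.20 and −0.28 in the same order, beside −0.03, 0.02 and −0.01 over all genes tested. The libraries of the compared stages did not overlap for 5, 4 and 4 of the 8 genes, where 36.7%, 35.3% and 42.4% of all genes did not. With edgeR, an unadjusted p under 0.05 was reached by 4, 2 and 3 of the 8 genes, where 27.9%, 29.6% and 37.2% of all genes reached it. DESeq2 passed 4, 2 and 2 of the 8 at an adjusted p of at most 0.05, and 17.5%, 16.3% and 27.4% of all genes. Without E10.5 replicate 3, 5 genes passed in the first interval (Pbx3, Pbx4, Meis1, Pknox1 and Pknox2), with Pbx4 a DEG. That fit also passed 39.6% of all genes at any fold change and called 9.79% of them DEGs. Over the whole span 3 passed without that library (Pbx2, Pbx3 and Pknox2), as did 30.1% of all genes. Without E12.5 replicate 2, 3 passed in the second interval (Pbx2, Meis3 and Pknox2), as did 30.8% of all genes.

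**Figure D3:**
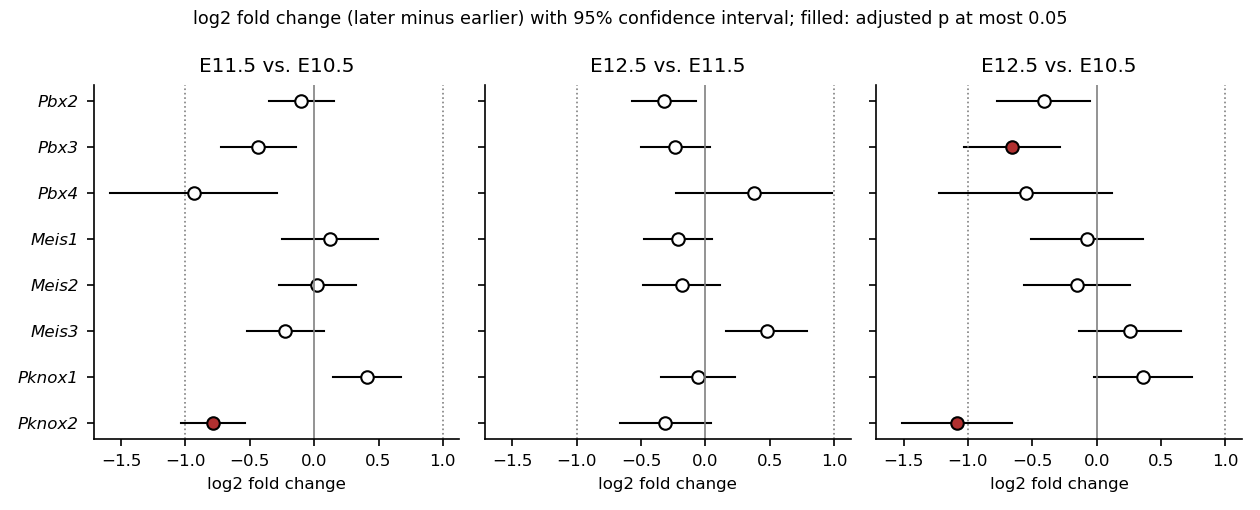
Log2 fold change of each gene (horizontal axes, later minus earlier stage) with its 95% confidence interval in the 3 comparisons, filled where the adjusted p was at most 0.05, with dotted lines at −1 and 1. Pknox2 is filled in both comparisons with E10.5 and Pbx3 over the whole span, all to the left of 0.

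Pknox2 was the only 1 of the 8 genes that passed in both comparisons with E10.5. PKNOX proteins partner PBX as MEIS proteins do, and Pknox1 is known to be needed in the early embryo. Pknox2 (ENSMUSG00000035934, chr9:36890982-37147407) was at 43.6, 44.7 and 46.3 CPM in the E10.5 libraries, then at 24.1, 27.2 and 26.8 in those of E11.5 and 21.5, 24.8 and 16.8 in those of E12.5. Every E10.5 library was above every later library, and the E11.5 and E12.5 libraries overlapped. Pknox2 fell by 0.78 on the log2 scale in the first interval (SE 0.108, adjusted p = 0.00457), a level 1.72-fold lower. Over the whole span the log2 fold change was −1.08 (SE 0.194, adjusted p = 0.00236), a level 2.12-fold lower. In the second interval it was −0.31 (SE 0.159, adjusted p = 0.218). Both comparisons with E10.5 passed without each library in turn (6 of 6) and under 10 other settings, while the DEG call was lost without E12.5 replicate 3, where the log2 fold change was −0.95.

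The neuroepithelium and eye field sum above moved in the same direction as Pknox2, with its E10.5 libraries also above all later ones, and its part in the decrease of Pknox2 was not tested. The 3 genes of the 9-library fit with the pattern most like Pknox2 were Cyp26c1, which encodes an enzyme that breaks down retinoic acid (Pearson r of log2 CPM = 0.993 over the 9 libraries), Rnf165 (r = 0.993) and Vav2, a guanine nucleotide exchange factor (r = 0.992). 

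Pknox1 had higher values after E10.5 that did not pass the test. Pknox1 (ENSMUSG00000006705, chr17:31564749-31607684) was at 26.03, 24.2 and 25.2 CPM in the E10.5 libraries, then at 36.0, 30.8 and 33.1 in those of E11.5 and 33.4, 33.97 and 28.8 in those of E12.5. All 6 later libraries were above all E10.5 libraries. The log2 fold change was 0.41 in the first interval (SE 0.116, adjusted p = 0.0579), −0.06 in the second interval (SE 0.130, adjusted p = 0.788) and 0.36 over the whole span (SE 0.174, adjusted p = 0.159). In the first interval it passed with the GC trend removed (adjusted p = 0.0241), with DESeq2 (0.0188) and without E10.5 replicate 3 (0.00541). On the opposite strand, exons of AC166172.4 cover 155 bases of Pknox1, and whether reads were counted by strand is not given in the sources used here.

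The order of the PKNOX genes turned between E10.5 and E11.5. Per kb of exon, Pknox2 was above Pknox1 at E10.5 (4.34 ± 0.132 against 3.65 ± 0.137 CPM per kb, n = 3), and below it at E11.5 (2.52 ± 0.165 against 4.83 ± 0.380) and E12.5 (2.03 ± 0.388 against 4.65 ± 0.411). The same order held in CPM without division by length. The log2 ratio of Pknox2 to Pknox1 per kb was 0.16, 0.30 and 0.29 in the E10.5 libraries, −1.17, −0.77 and −0.89 in those of E11.5 and −1.22, −1.04 and −1.36 in those of E12.5. The ratio, which was taken after the levels were seen, was positive in 3 of 3 E10.5 libraries and negative in 6 of 6 later libraries. Its mean moved by −1.19 from E10.5 to E11.5 and by −1.46 from E10.5 to E12.5, each with p = 0.1 in a two-sided exact permutation test, the smallest p that 3 against 3 libraries allow. Pknox2 and Pknox1 each separated E10.5 from all later libraries, in opposite directions. The p of 0.1 followed from those levels and adds no support of its own. From E11.5 to E12.5 the ratio moved by −0.27 (exact permutation p = 0.2).

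**Figure D4:**
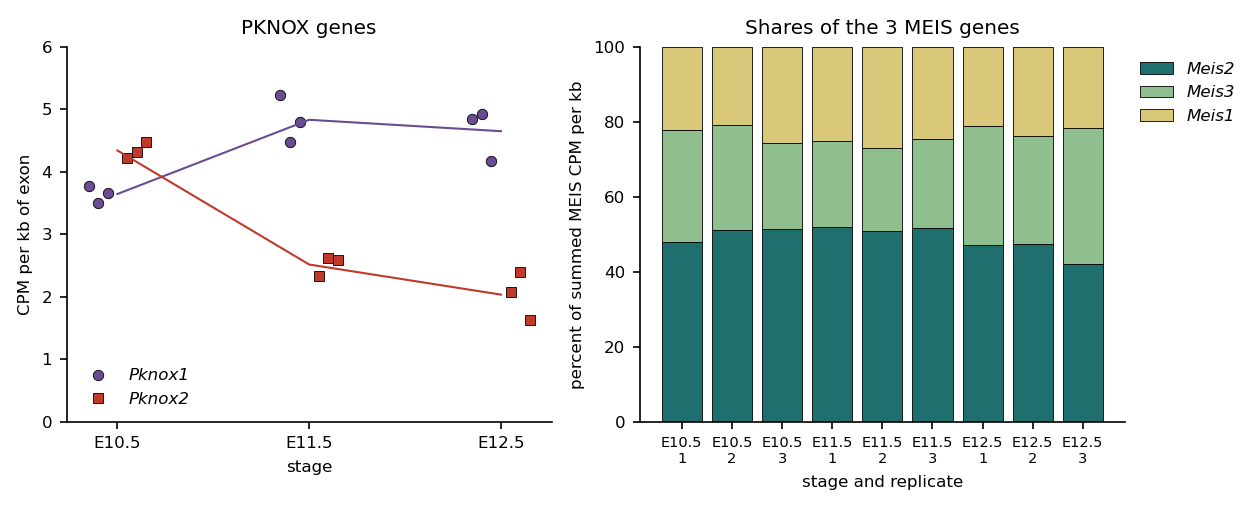
Left, level of Pknox1 (circles) and Pknox2 (squares) in CPM per kb of exon in each library by stage, with lines through the stage means. Right, share of Meis2, Meis3 and Meis1 in the summed CPM per kb of the MEIS genes, in percent, for each of the 9 libraries. Pknox2 is above Pknox1 at E10.5 only, and Meis2 holds 42.0–51.9% of the MEIS sum in every library.

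Of the PBX genes, Pbx3 was downregulated from E10.5 to E12.5. PBX3 shares the role of DNA-binding partner with the other PBX proteins. Pbx3 (ENSMUSG00000038718, chr2:34171457-34373142) was at 59.9, 68.7 and 75.8 CPM in the E10.5 libraries, then at 47.2, 55.6 and 48.1 in those of E11.5 and 41.8, 43.9 and 43.0 in those of E12.5. No libraries of any 2 stages overlapped, and each stage lay below the earlier ones. The log2 fold change was −0.43 in the first interval (SE 0.127, adjusted p = 0.0630), −0.24 in the second interval (SE 0.122, adjusted p = 0.221) and −0.66 over the whole span (SE 0.169, adjusted p = 0.0161), the last a level 1.58-fold lower. The call over the whole span was lost without E10.5 replicate 2 (adjusted p = 0.0620) and without E12.5 replicate 1 (0.0763), with log2 fold changes of −0.66 and −0.64. Of the 8 genes, Pbx3 has the lowest GC content, taken on the longest transcript (38.8%). Without E10.5 replicate 3 the log2 fold change in the first interval was −0.35 (adjusted p = 0.0102). It was −0.55 (adjusted p = 0.00107) when the GC trend of the other libraries was removed as well. With no library left out it was −0.44 (adjusted p = 0.0554) with that trend removed, and it passed with DESeq2 (−0.43, adjusted p = 0.0291).

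Pbx2, the most abundant member, had lower values at E12.5 that did not pass. Pbx2 (ENSMUSG00000034673, chr17:34591266-34597400) was at 275, 283 and 237 CPM in the E10.5 libraries, then at 228, 257 and 255.5 in those of E11.5 and 200.4, 192 and 201 in those of E12.5. The E12.5 libraries were below all earlier ones, and E10.5 and E11.5 overlapped. The log2 fold change was −0.10 in the first interval (SE 0.109, adjusted p = 0.603), −0.32 in the second interval (SE 0.114, adjusted p = 0.0892) and −0.41 over the whole span (SE 0.164, adjusted p = 0.0932). The last passed with the GC trend removed (adjusted p = 0.0169), in the fit on all 9 libraries (0.0236) and without E10.5 replicate 3 (0.0303). The change in the second interval passed with DESeq2 (adjusted p = 0.0458), with the GC trend removed (0.0303) and without E12.5 replicate 2 (0.0496). Exons of Gpsm3 on the same strand overlap 6.24% of the exon bases of Pbx2.

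Pbx4, another PBX gene, had the fewest counts of the 8 genes. Pbx4 (ENSMUSG00000031860, chr8:69832491-69872292) was at 4.22, 5.05 and 3.10 CPM in the E10.5 libraries (71, 87 and 50 counts), then at 2.69, 2.07 and 1.69 in those of E11.5 (50, 43 and 32 counts) and 3.32, 2.26 and 2.80 in those of E12.5 (59, 42 and 47 counts). The E11.5 libraries were below all E10.5 libraries, and E12.5 overlapped both other stages. The log2 fold change was −0.94 in the first interval (95% confidence interval −1.59 to −0.29, adjusted p = 0.0696), 0.37 in the second interval (−0.23 to 0.98, adjusted p = 0.387) and −0.55 over the whole span (−1.22 to 0.12, adjusted p = 0.216). Without E10.5 replicate 3 it was −1.11 in the first interval (adjusted p = 0.00466). When the GC trend of the other libraries was removed as well it was −0.93 (adjusted p = 0.0154), so Pbx4 was no longer a DEG. With no library left out it passed with DESeq2 (adjusted p = 0.0292) and with the GC trend removed (0.041). It did not pass with the replicate block and the GC trend removed (0.0584).

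The MEIS genes did not pass in any comparison. MEIS1 and MEIS2 are partners of PBX proteins that are widely expressed in the embryo, and Meis2 is known to be needed in cranial neural crest. Meis2 (ENSMUSG00000027210, chr2:115863064-116065839) was at 153, 157 and 196 CPM in the E10.5 libraries, then at 182, 156 and 175 in those of E11.5 and 172, 154 and 127 in those of E12.5. All pairs of stages overlapped, and the log2 fold changes were 0.02 (95% confidence interval −0.27 to 0.32) in the first interval, −0.18 (−0.49 to 0.12) in the second and −0.15 (−0.56 to 0.26) over the whole span. A 2-fold change in either direction lies outside each of these intervals.

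Meis1 had both its lowest and its highest value among the E10.5 libraries. Meis1 (ENSMUSG00000020160, chr11:18879817-19018985) was at 61.7, 56.1 and 85.5 CPM in the E10.5 libraries, then at 76.6, 71.6 and 72.9 in those of E11.5 and 67.05, 67.5 and 57.1 in those of E12.5. The E10.5 libraries spanned all later ones, with replicate 3 the highest of the 9 libraries. The log2 fold change was 0.12 (SE 0.162, adjusted p = 0.666) in the first interval, −0.21 (SE 0.119, adjusted p = 0.258) in the second interval and −0.08 (SE 0.198, adjusted p = 0.813) over the whole span. Without E10.5 replicate 3 it was 0.33 in the first interval (adjusted p = 0.00453), and 0.18 (adjusted p = 0.0553) when the GC trend of the other libraries was removed as well. Exons of Gm37818 and Gm16140 overlap 18.3% of the exon bases of Meis1, the second on the opposite strand.

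Meis3 had its highest stage mean at E12.5, without passing the test. Meis3 (ENSMUSG00000041420, chr7:16175090-16186504), a shorter and less studied MEIS gene, was at 24.9, 22.7 and 22.8 CPM in the E10.5 libraries, then at 21.4, 17.8 and 20.9 in those of E11.5 and 30.4, 24.5 and 28.9 in those of E12.5. The E11.5 libraries were below those of both other stages, and E10.5 and E12.5 overlapped. The log2 fold change was −0.22 in the first interval (SE 0.129, adjusted p = 0.30), 0.48 in the second interval (SE 0.141, adjusted p = 0.0516) and 0.26 over the whole span (SE 0.181, adjusted p = 0.323). In the second interval it passed with upper quartile normalization, with DESeq2 and without E12.5 replicate 2, while with the GC trend removed the log2 fold change was 0.30 (adjusted p = 0.163). Over the whole span it was 0.11 (adjusted p = 0.675) with that trend removed. Of the 8 genes, Meis3 has the highest GC content, taken on the longest transcript (59.4%).

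The summed level of the MEIS genes was 27.8 ± 3.26, 27.5 ± 1.95 and 27.4 ± 2.61 CPM per kb at the 3 stages (mean ± SD, n = 3), a difference smaller than the spread between replicates. Meis2 made up 50.2 ± 1.89%, 51.6 ± 0.517% and 45.6 ± 3.08% of that sum. The share of Meis3 was 26.9 ± 3.64%, 22.9 ± 0.673% and 32.3 ± 3.86%, with every E12.5 library (28.7–36.4%) above every E11.5 library (22.2–23.5%). The share of Meis1 was 22.9 ± 2.52%, 25.5 ± 1.17% and 22.2 ± 1.44%. These shares set Meis3 (59.4% GC) against Meis1 (42.4%) and Meis2 (43.8%), and no GC trend between libraries was removed from them. The log2 fold change of Meis3 in the second interval was 0.48 as reported and 0.30 with that trend removed.

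Over the 3 stages together, 2 of the 8 genes passed, Pknox2 (adjusted p = 0.000601) and Pbx3 (0.00745), against 28.3% of the 16375 genes tested. Without E10.5 replicate 3, 5 passed, as did 37.2% of all genes. The difference between the E11.5 to E12.5 and the E10.5 to E11.5 interval passed for 0 of 8 (1.18% of all genes), and an unadjusted p under 0.05 was reached by 2 (12% of all genes), Pbx4 (1.32, SE 0.509, adjusted p = 0.308) and Meis3 (0.71, SE 0.263, adjusted p = 0.283). For Pknox2, whose decrease passed in the first interval and not in the second, that difference was 0.48 on the log2 scale (SE 0.276, adjusted p = 0.532), so the intervals were not shown to differ.

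**Figure D5:**
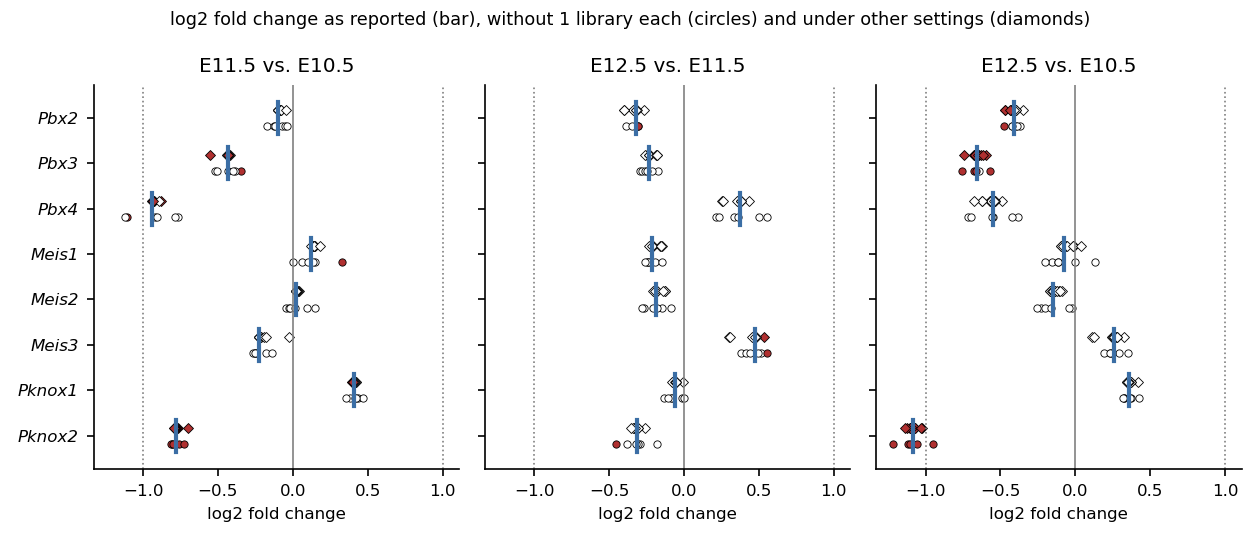
Log2 fold change of each gene (horizontal axes) in the 3 comparisons as reported (vertical bar), without each library in turn (circles) and under the other settings (diamonds), filled where the adjusted p was at most 0.05. All points of Pknox2 in the first interval and over the whole span are filled, between −0.81 and −0.70 and between −1.22 and −0.95, and the single filled point of Meis1 is the fit without E10.5 replicate 3.

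The other TALE genes hold the TGIF repressors, the Iroquois (Irx) genes and Mkx. Of these 9 (Tgif1, Tgif2, Irx1 to Irx6 and Mkx), 4 rose and 0 fell in the first interval (2 DEGs), where 6.19% of all genes rose and 5.58% fell. In the second interval 2 rose and 1 fell (2 DEGs), beside 7.61% and 4.57% of all genes. Over the whole span 4 rose and 0 fell (all DEGs), beside 14.0% and 10.5%. Their median log2 fold change was 0.62, 0.01 and 0.68 in the same order. Iroquois genes encode patterning factors of the early embryo, and 4 of them were DEGs over the whole span, namely Irx6 (log2 fold change 3.63, SE 0.555), Irx4 (2.15, SE 0.293), Irx1 (1.30, SE 0.315) and Irx5 (1.03, SE 0.272). Irx6 went from 1–4 counts per library to 65–86 and then 24–39, and was upregulated in the first interval (adjusted p = 0.00130) and downregulated in the second interval (−1.17, adjusted p = 0.0222). Irx2 (0.95, adjusted p = 0.0473) and Irx4 (1.24, adjusted p = 0.00205) rose in the second interval. Tgif1, a corepressor of TGF-beta and retinoid signaling, rose by 0.38 in the first interval (adjusted p = 0.0416), and Mkx, a tendon regulator, by 0.74 (adjusted p = 0.0242). Irx3 (82.8–96.5 CPM in the stage means) and Tgif2 (13.7–21.5) did not pass. Without E10.5 replicate 3, 5 rose and 1 fell (Tgif2) in each of the comparisons with E10.5, where 19.6% and 16.6% of all genes rose and 20.0% and 13.4% fell. Irx5 was no longer a DEG in either (0.78 and 0.78, adjusted p = 0.000526 and 0.0199).

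Among genes described as dependent on PBX in the facial ectoderm, with the PBX-interacting protein Pbxip1, 0 of 5 passed in either interval (11.8% and 12.2% of all genes) and 1 of 5 rose over the whole span (14.0%). It was Wnt3, a Wnt ligand of the surface ectoderm (0.77, SE 0.246, adjusted p = 0.0424), at 8.22 ± 2.27, 13.1 ± 1.31 and 13.9 ± 1.27 CPM at the 3 stages. The neighboring ligand gene Wnt9b was at 26.3 ± 6.49, 39.5 ± 2.88 and 32.7 ± 3.17 CPM (0.59 in the first interval, adjusted p = 0.0770). The epithelial regulator Trp63 and the mesenchymal regulator Snai1 did not pass in any comparison, and at E10.5 their SD was 51.1% and 44.9% of the mean. Without E10.5 replicate 3, 3 of 5 rose in the first interval (19.6% of all genes), namely Wnt3 (0.93, adjusted p = 0.000507), Wnt9b (0.79, 0.000233) and Trp63 (0.23, 0.0489), and 1 over the whole span (16.6%), Wnt3 (1.02, 0.00489).

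The Hox partners of PBX had few counts. Of 39 Hox genes, 14 had no count in any library and 2 passed the filter in the 9-library fit. Hoxd1 and Hoxd8 were upregulated DEGs in the second interval (log2 fold change 3.62, adjusted p = 0.00302, and 4.08, 0.00965). Both were also DEGs over the whole span (6.04, adjusted p = 0.000188, and 7.47, 0.00142). These changes start near 0 and reach means of 1.78 and 1.28 CPM at E12.5. Together the Hox genes summed to 0.297–0.681, 0.962–1.99 and 3.88–6.03 CPM per library at the 3 stages, below Meis3, the lowest MEIS gene in CPM (17.8–30.4), in every library.

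The genes with the patterns most like the other members over the 9 libraries were Crym, Lmnb1 and Pola2 for Pbx2 (Pearson r of log2 CPM = 0.978–0.987), Gm6560, Pabpc1 and Frmd5 for Pbx3 (0.988–0.996), and Rpl35a-ps2, Gm44103 and Smyd2 for Pbx4 (0.927–0.963). For Meis1 they were Zfp760, Phkb and Tsga10 (0.962–0.965), for Meis2 Esyt3, Tmem184c and Cap1 (0.914–0.935), for Meis3 Cspg5, Hapln3 and Naaa (0.945–0.976), and for Pknox1 Fam168a, Igsf10 and Foxn3 (0.981–0.985). All of these are descriptions over libraries that share their stages, and the part of the GC-related deviation of E10.5 replicate 3 in them was not tested.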

How the data were processed

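RNA-seq libraries of lambdoidal junction tissue were made with the Illumina TruSeq RNA kit, 3 per stage. According to the study's methods and processing notes, reads were checked with FASTQC, mapped to GRCm38 (mm10) with HISAT2 2.0.5 and counted per gene with featureCounts. The table deposited by the authors holds raw featureCounts read counts. It also holds FPKM values that the authors computed from these counts and gene length, and their DESeq2 stage means, log2 fold changes and p-values, none of which was used. Depth was 16581009–20836804 counts per library. Whether counting used strand is not given in the sources used here, so reads of overlapping genes may be shared.

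The 6 libraries of each comparison were fitted with edgeR 4.0.16 (R 4.3.3): filterByExpr, TMM, and the quasi-likelihood test with Benjamini-Hochberg adjustment over all genes tested. The thresholds for DEGs were 0.05 for the adjusted p and 1 for the size of the log2 fold change. All 9 libraries were fitted together for the 3 stages and for the difference of the intervals. The script was tested on simulated data. Alternatives used DESeq2 1.42.0, other normalizations and filters, a joint fit of the 9 libraries, a block for replicate number, removal of the GC trend (lowess, span 0.3), a stricter threshold, and each library left out in turn. The fits without E10.5 replicate 3 with the GC trend removed, those of the other gene lists without that library, and those of the PKNOX ratio were chosen after seeing the data. No source says that libraries come from separate litters, so p-values measure the spread between these pooled libraries. Coordinates are those of the deposited table, which matched GENCODE vM21 for 98.33% of the 54409 identifiers found there. Homeoboxes, exon overlaps, GC content (of the longest transcript of each gene) and shared 50-base words were taken from GENCODE vM21.

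The genes named were all 8 members, all genes of the other TALE and PBX-related lists, the 3 genes with the highest correlation with each member, genes whose exons overlap a member's, and marker genes as examples of their lists. The members and lists were chosen with earlier results of these data known. Some genes first placed in these lists are not reported here and entered no count or sum. Of the remaining marker lists, summed levels at the 3 successive stages were 238–272, 286–307 and 404–481 CPM for neurons, 2054–2659, 2648–2770 and 1708–2269 for erythroid cells, 126–354, 331–336 and 297–354 for endothelium, 23.0–37.4, 36.8–40.3 and 45.5–50.6 for macrophages, 628–1066, 492–622 and 565–735 for cartilage, and 11.2–23.3, 4.95–7.02 and 4.48–5.25 for skeletal muscle. Each sum follows its most abundant genes. In the cartilage list, Col2a1 was at 688, 402 and 377 CPM in the stage means. Acan (log2 fold change 5.83) and Col9a2 (2.93) were upregulated DEGs over the whole span. In the muscle list, Des was at 15.3, 3.29 and 0.807 CPM. Myog and Myod1, too low to be tested, were higher in every E12.5 library than in any E10.5 library. The lower sums of these lists are thus not a decrease of all their genes.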

Additional observations from a re-analysis of the deposited data

How the results depend on the processing

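Of 400 values of the 8 genes' log2 fold changes under alternatives, 365 kept their direction and their side of the threshold, 26 passed where the reported value did not, 3 no longer passed and 6 changed sign. The 3 that no longer passed were Pbx3 in E12.5 vs. E10.5, without replicate 2 of E10.5, without replicate 1 of E12.5 and at a threshold of 0.01. The 6 sign changes were all far from the threshold: Meis2 in E11.5 vs. E10.5, which was −0.043 to 0.15 over the fits without a library (below 0 without replicates 1 and 2 of E10.5 and replicate 1 of E11.5), Pknox1 in E12.5 vs. E11.5 (−0.13 to 0.0012, above 0 without E12.5 replicate 3), and Meis1 in E12.5 vs. E10.5 (−0.20 to 0.13, above 0 without E10.5 replicate 3, and 0.036 with the GC trend removed as well).

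In E11.5 vs. E10.5, where 1 of the 8 genes passed at an adjusted p of at most 0.05, 4 passed with DESeq2, 3 with the GC trend removed, 3 with the replicate block and the GC trend removed, and 4 without E10.5 replicate 3 and with the GC trend removed. In E12.5 vs. E11.5, where 0 passed, 1 passed with upper quartile normalization, 2 with DESeq2 and 1 with the GC trend removed. In E12.5 vs. E10.5, where 2 passed, 1 passed at an adjusted p of at most 0.01, and 3 in the joint fit of the 9 libraries, with the GC trend removed (with and without the replicate block) and without E10.5 replicate 3 with that trend removed. Over the 3 stages, where 2 passed, 6 passed with the DESeq2 likelihood ratio test. In the pairs of stages, DESeq2 also passed more of all genes (17.5%, 16.3% and 27.4%) than the reported fits (11.8%, 12.2% and 24.6%). For the likelihood ratio test and the other settings named so far in this paragraph, the share of all genes is not given here. Their counts are therefore not a result about the 8 genes. Without each library in turn, the counts were 1 to 5, 0 to 3 and 1 to 3 in the pairs of stages and 2 to 5 over the 3 stages, the DEG counts 0 to 1, 0 to 0 and 0 to 1, and the count of differing intervals 0 to 0. The change of the PKNOX ratio was −1.28 to −1.08, −0.38 to −0.18 and −1.54 to −1.38. The count of DEGs over all genes in E11.5 vs. E10.5 was 395 to 1592 without a library. The causes were not tested.

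The replicate numbers were not shown to pair the libraries, since same-numbered libraries had correlations of their deviations from the stage means of −0.258 to 0.246. With the replicate number as a block, 1, 0 and 2 of the 8 genes passed in the pairs of stages and 2 over the 3 stages, as without it. Depth limits Pbx4 (32–87 counts) and Irx6 at E10.5 (1–4 counts), and counts come from amplified reads without molecular identifiers.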
